A study of Mus musculus with 17 samples.

Results

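The regions described here lie at the mouse genes of the neurotrophin system that are built around brain-derived neurotrophic factor: Bdnf and Ntf3, which encode secreted ligands, Ntrk2 and Ntrk3, which encode their tyrosine kinase receptors TrkB and TrkC, and Ngfr, which encodes the shared receptor p75. Members were chosen by position: every region that overlapped the body of 1 of the 5 genes extended by 10 kb on each side was taken. Of 147420 regions kept over the genome, 192 met this rule. They comprised 6 regions of Bdnf, 6 of Ntf3, 101 of Ntrk2, 77 of Ntrk3 and 2 of Ngfr. Before regions that fewer than 2 libraries of any 1 group had called were left out, the numbers were 392 at these genes of 281189 in all.

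Open chromatin was profiled by ATAC-seq, an assay that uses a transposase to cut and tag accessible DNA. The nuclei were neuronal, sorted with an antibody to NeuN, and came from both nuclei accumbens of C57BL/6 mice (C57BL/6J in the study's methods) aged 52 to 54 days. There were 17 libraries, each pooled from 3 animals. Females in diestrus and in proestrus gave 3 control and 3 cocaine libraries per stage, and males gave 3 control libraries and 2 after cocaine. Cocaine was given once at 10 mg/kg into the peritoneum, and tissue was taken 1 hour later. Diestrus and proestrus are the low-estrogen and high-estrogen stages of the mouse cycle. The stage label of diestrus cocaine 2 was blank and its title gave the group, and the proestrus cocaine libraries are numbered 1, 2 and 4. No injection of vehicle is described for the controls, so the injection and the drug cannot be told apart.

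Neurotrophins are secreted peptides that bind receptor tyrosine kinases on neurons. BDNF acts through TrkB and neurotrophin 3 mainly through TrkC, while p75 binds all neurotrophins and their uncleaved precursors. Receptor activation recruits adaptors such as Shc and Frs2 and signals through the MAP kinase, phosphoinositide 3-kinase and phospholipase C-gamma pathways. Bdnf is a gene with many promoters: each start site opens a transcript with its own first exon, joined to a common coding exon, and several of these promoters respond to neuronal activity. Much of the BDNF protein in the striatum is made in cortical neurons and carried there along their axons, while TrkB is made by striatal neurons. Ntrk2 and Ntrk3 also give truncated receptors that lack the kinase.

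The sequences that carry the results are given first, in the direction of transcription and from the GRCm38 genome, which is the build of the peak files. The 250 bases before Bdnf start sites 3, 4 and 5 (RefSeq promoter table, GRCm38; chr2:109676782-109677031, chr2:109692186-109692435 and chr2:109692777-109693026, plus strand) are shown because they overlap the 2 Bdnf regions whose fold enrichment could be compared across conditions. The capital marks the last base before the start site. Start sites are numbered in the order of transcription from GENCODE transcripts, and 5′ ends at most 250 bp apart were joined into 1 site. None of these 3 stretches overlaps an annotated exon.
Bdnf upstream of start site 3: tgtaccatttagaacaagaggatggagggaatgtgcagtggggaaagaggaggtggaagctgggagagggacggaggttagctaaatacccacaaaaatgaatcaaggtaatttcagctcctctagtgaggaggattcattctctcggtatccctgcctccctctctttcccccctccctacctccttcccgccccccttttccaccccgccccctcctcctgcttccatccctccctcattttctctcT
Bdnf upstream of start site 4: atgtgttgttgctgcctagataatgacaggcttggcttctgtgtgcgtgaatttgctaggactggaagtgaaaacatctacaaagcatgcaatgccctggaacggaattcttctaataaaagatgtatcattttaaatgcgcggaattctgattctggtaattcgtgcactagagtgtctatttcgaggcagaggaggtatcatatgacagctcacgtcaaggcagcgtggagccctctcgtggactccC
Bdnf upstream of start site 5: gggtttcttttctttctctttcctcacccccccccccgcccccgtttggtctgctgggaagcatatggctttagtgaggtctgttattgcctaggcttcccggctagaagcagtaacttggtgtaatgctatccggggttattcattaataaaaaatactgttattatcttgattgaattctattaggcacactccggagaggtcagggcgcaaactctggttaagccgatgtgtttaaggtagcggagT

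The windows below hold the 100 bases on each side of a peak summit, the base with the deepest read pileup, which is in capitals unless a motif is marked. They are the windows of Bdnf regions 2, 5 and 6 (chr2:109678124-109678324, chr2:109693339-109693539 and chr2:109694851-109695051, plus strand), whose peaks were highest in, or mostly limited to, male controls. Ntf3 region 4 (chr6:126154332-126154532, minus strand) and Ntrk3 region 63 (chr7:78328450-78328650, minus strand) were called in all 3 male controls and in no other library. Ntrk2 region 54 (chr13:58973445-58973645, plus strand) and Ntrk3 region 68 (chr7:78297388-78297588, minus strand) had fold enrichments that differed after cocaine in females. Ntrk3 regions 28 and 29 (chr7:78500968-78501168 and chr7:78498454-78498654, minus strand) hold, in capitals, an AP-1 motif and a cAMP response element. All 9 windows lie within the body of their gene and overlap no annotated exon.
Bdnf region 2: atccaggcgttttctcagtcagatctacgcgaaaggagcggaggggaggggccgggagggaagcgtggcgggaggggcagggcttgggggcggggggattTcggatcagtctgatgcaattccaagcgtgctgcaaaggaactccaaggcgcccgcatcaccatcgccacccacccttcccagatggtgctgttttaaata
Bdnf region 5: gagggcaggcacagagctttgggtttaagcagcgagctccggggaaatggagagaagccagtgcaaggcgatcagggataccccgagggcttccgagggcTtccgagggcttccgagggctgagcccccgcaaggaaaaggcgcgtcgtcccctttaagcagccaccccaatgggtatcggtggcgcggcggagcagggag
Bdnf region 6: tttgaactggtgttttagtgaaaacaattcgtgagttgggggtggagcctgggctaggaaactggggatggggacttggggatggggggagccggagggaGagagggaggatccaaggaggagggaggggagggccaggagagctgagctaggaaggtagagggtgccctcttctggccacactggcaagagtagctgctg
Ntf3 region 4: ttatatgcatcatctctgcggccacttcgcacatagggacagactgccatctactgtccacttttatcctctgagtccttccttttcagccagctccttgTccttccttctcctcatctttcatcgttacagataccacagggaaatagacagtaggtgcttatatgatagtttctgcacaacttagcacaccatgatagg
Ntrk3 region 63: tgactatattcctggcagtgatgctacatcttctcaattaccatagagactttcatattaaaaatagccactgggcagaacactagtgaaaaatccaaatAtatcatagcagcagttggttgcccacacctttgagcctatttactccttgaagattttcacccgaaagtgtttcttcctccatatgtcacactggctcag
Ntrk2 region 54: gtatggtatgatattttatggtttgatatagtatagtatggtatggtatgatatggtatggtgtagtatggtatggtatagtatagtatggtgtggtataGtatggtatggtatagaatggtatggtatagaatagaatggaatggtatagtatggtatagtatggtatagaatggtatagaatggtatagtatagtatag
Ntrk3 region 68: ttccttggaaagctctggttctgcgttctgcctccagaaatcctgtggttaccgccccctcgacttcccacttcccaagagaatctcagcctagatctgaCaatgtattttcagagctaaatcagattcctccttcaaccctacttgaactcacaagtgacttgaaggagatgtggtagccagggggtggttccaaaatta
Ntrk3 region 28: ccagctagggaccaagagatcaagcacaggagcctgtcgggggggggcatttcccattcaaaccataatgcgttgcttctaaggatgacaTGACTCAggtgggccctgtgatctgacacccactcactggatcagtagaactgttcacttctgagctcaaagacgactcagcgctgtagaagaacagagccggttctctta
Ntrk3 region 29: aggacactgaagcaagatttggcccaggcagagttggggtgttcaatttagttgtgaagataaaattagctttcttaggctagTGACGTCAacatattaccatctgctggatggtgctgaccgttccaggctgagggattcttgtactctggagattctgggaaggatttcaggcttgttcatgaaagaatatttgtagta

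The authors called peaks in each library on its own, and each peak carries a fold enrichment. This is the read pileup at its summit over the background of that library, where 1 is the background itself. Within each library the values were whole multiples of 1 step, so that a single background served the whole library and no local one. A region is called in a library that has a peak there, and a region that is not called may still hold reads. The libraries held 75484 to 157014 peaks. The 2 male cocaine libraries held the fewest, 75484 and 87732, against 134665 to 150019 in male controls. The background pileup, a measure of relative depth, lay between 6.26 and 9.55 reads and was 7.6 to 8.15 in male cocaine, within the range of the other groups. All 4 neuronal markers (Rbfox3, Snap25, Syt1, Map2) and all 5 markers of medium spiny neurons, the main cell of the accumbens (Drd1, Drd2, Ppp1r1b, Adora2a, Penk), had a start-site peak in every library. Start-site peaks of 3 markers of cortical excitatory neurons (Slc17a7, Neurod6, Neurod2) were unevenly spread. Male controls had 3 of 3 of them, with a summed fold enrichment of 14.9 to 17.2 per library, and male cocaine had 0. Diestrus control had 0 to 1 (0 to 2.32), diestrus cocaine 0, proestrus control 1 to 2 (3.02 to 5.6) and proestrus cocaine 0 to 2 (0 to 5.91). Proestrus cocaine 2 also had start-site peaks at 3 of 3 oligodendrocyte markers (summed fold enrichment 18.1), while every other library had 1, Mbp. Of 4 astrocyte markers 0 to 2 had one, and of 4 microglial markers 0 to 1. Of these, the astrocyte markers Gfap and Aldh1l1 had one in 16 and 3 libraries, and the microglial markers Aif1 and P2ry12 in 6 and 2. No endothelial marker, nor Aqp4, Gja1, Cx3cr1 or Csf1r, had a peak in any library.

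Start sites divided the genes into 3 kinds. The TrkB gene Ntrk2 and the TrkC gene Ntrk3 each had start sites with a peak in all 17 libraries, Bdnf and Ngfr had start sites with a peak in some libraries, and Ntf3 had none. Of 21755 protein-coding genes, 54.4% had a start-site peak (within 250 bp) in all libraries, 11% in some and 34.6% in none, so Bdnf and Ngfr belong to the smallest class.

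At Bdnf (chr2:109674700-109727007, plus strand), 5 of 8 start sites had a peak in at least 1 library and none had one in all. Start sites 1, 7 and 8 had none. Start site 4 had a peak in 15 libraries and start site 3 in 13. Start site 2 had one in 8 libraries, among them the 3 male controls. Start site 6 had one in 4 libraries, the 3 male controls and diestrus cocaine 2. Start site 5 had one in the 3 male controls alone. The strongest of those peaks had fold enrichments of 8.16, 4.82 and 8.23, and their summits lay nearest to start sites 4, 6 and 4, not to start site 5. Every one of these 5 sites therefore had a peak in all 3 male controls, and diestrus cocaine 3 had a peak at none of them.

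Ngfr (chr11:95568818-95587735, minus strand) has 1 start site, which had a peak in 15 libraries and none in diestrus cocaine 3 and proestrus cocaine 4. Ntf3 (chr6:126101412-126166910, minus strand) has 2 start sites and no peak within 250 bp of either. Ntrk2 (chr13:58806569-59133970, plus strand) has 6 start sites, and sites 1 to 4 lie in a single region of chr13:58805150-58813206 with a median fold enrichment of 20 over the libraries. Ntrk2 sites 5 and 6, which open transcripts that are not protein coding, had a peak in 1 and 3 libraries. Ntrk3 (chr7:78175959-78738012, minus strand) has 14 start sites, of which 8 had no peak in any library. Sites 6 to 8 share Ntrk3 region 15 (chr7:78575145-78580249), which all libraries called at a median fold enrichment of 7.27. This region lies 160 kb into the annotated gene and holds the start sites of 5 of its 6 protein-coding transcripts. Ntrk3 site 2, of a transcript that is not protein coding, had a peak in 5 libraries: the 3 male controls (6.12, 3.99 and 6.04) and proestrus cocaine 1 and 4 (3 and 2.93).

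**Figure D1:**
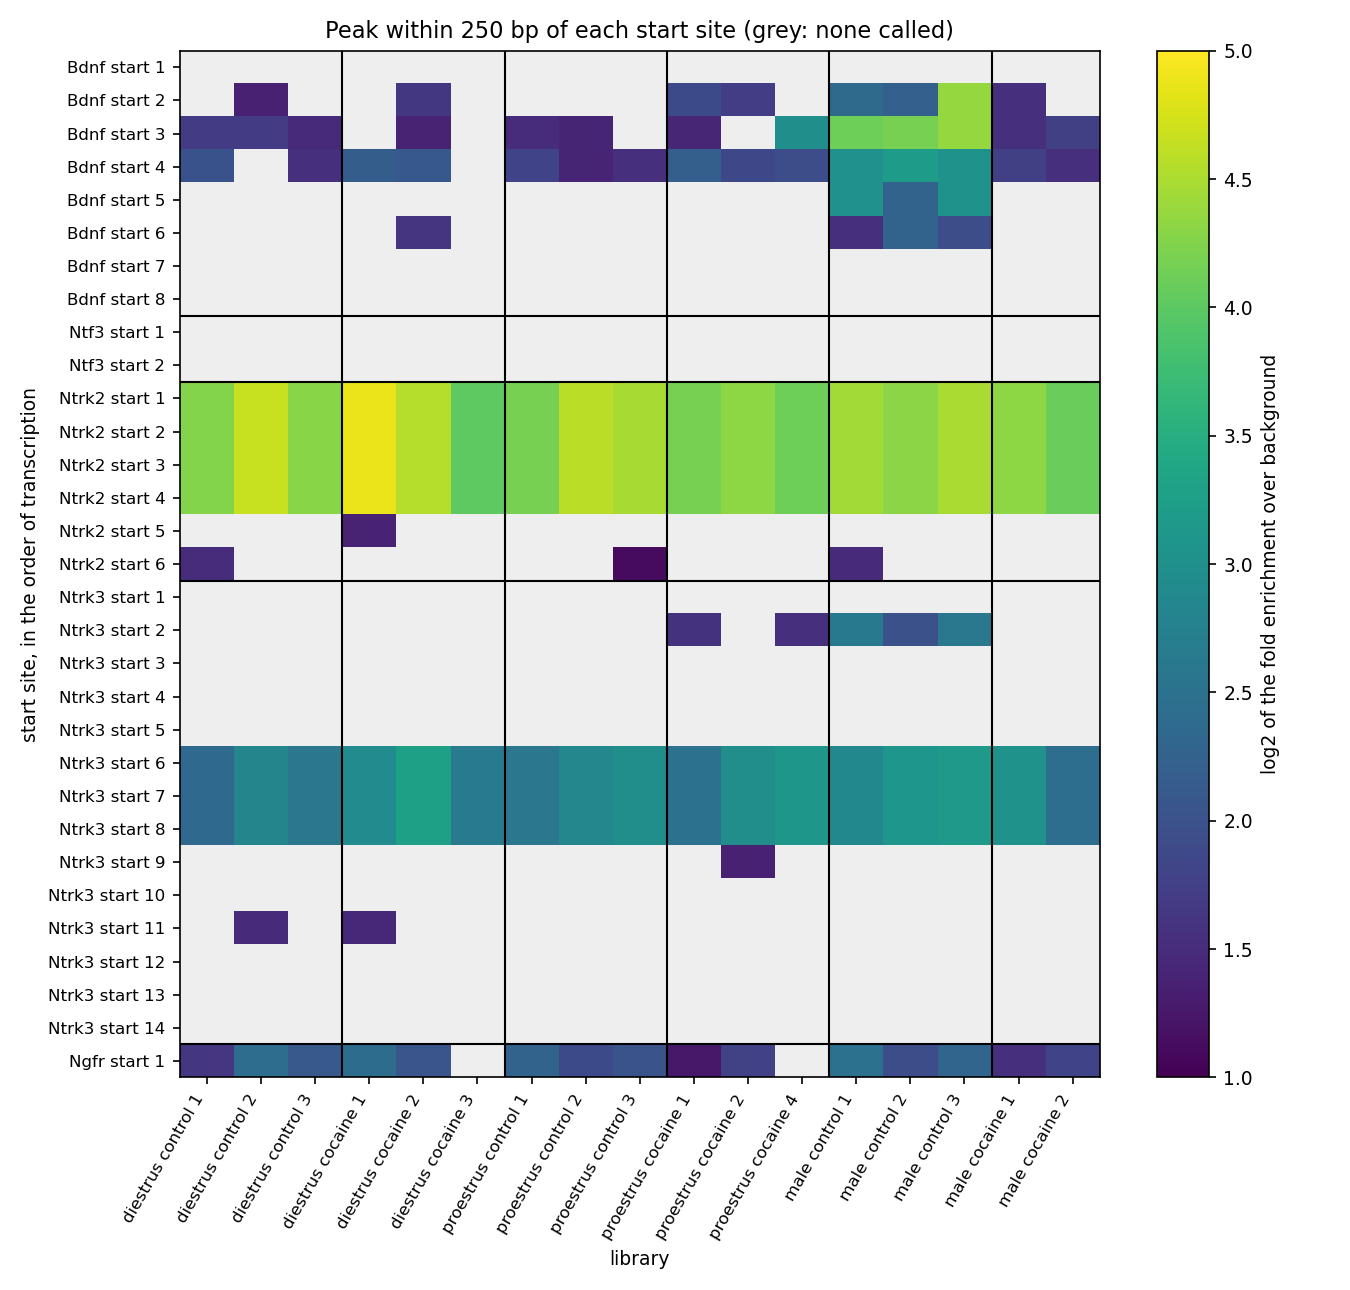
Each cell is 1 library (horizontal axis, grouped by condition) at 1 start site (vertical axis, in the order of transcription), and its colour is the log2 of the fold enrichment of the strongest peak within 250 bp; grey means that no peak was called. Ntrk2 sites 1 to 4 and Ntrk3 sites 6 to 8 are filled in all 17 libraries, Ntf3 is empty, and Bdnf sites 2 to 6 are all filled in the 3 male controls.

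Bdnf region 2 (chr2:109675992-109679063) was the only region of Bdnf called in all 17 libraries. Fold enrichments were 7.49, 7.26 and 5.71 in diestrus controls, and 7.36, 5.03 and 3.22 in diestrus cocaine. In proestrus they were 7.18, 5.34 and 7.3 in controls, and 7.61, 5.99 and 7.96 after cocaine. In males they were 17.3, 18.2 and 20.6 in controls, and 5.9 and 6.28 after cocaine. The 3 male controls lay above every other library with no overlap, and the 2 male cocaine libraries lay within the range of the females. The summit was in nearly the same place throughout, within 142 bp over the 17 libraries and 1075 to 1217 bp downstream of start site 3, in the window printed above. The peak was wider in male controls (2107 to 2833 bp) than in the other libraries (463 to 1841 bp), so the values at start sites 2 and 3 in some male controls are those of 1 wide peak with its summit inside the gene.

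With each library centred on its median region, the fold enrichment of Bdnf region 2 in males was 2.19-fold lower after cocaine (log2 difference −1.13, SE 0.20, 95% interval −1.53 to −0.74, limma adjusted p 0.00023). In diestrus the difference was −0.48 (−0.83 to −0.13, adjusted p 0.0662) and in proestrus 0.02 (−0.33 to 0.37, adjusted p 0.962), neither past the threshold of 0.05. The male difference exceeded the mean of both female differences by −0.90 (SE 0.23, adjusted p 0.0079). Without male cocaine 1 that last difference missed the threshold (adjusted p 0.0705). Among controls, males were 2.29-fold higher than the mean of both female stages (log2 difference 1.19, SE 0.15, adjusted p 4.57e-07). These comparisons share the 3 male control libraries and are not independent of each other. Start-site peaks of cortical excitatory markers were also most frequent in the male controls (3 of 3, against 0 in male cocaine), and their part in the result was not tested.

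In each of the other 5 regions of Bdnf the highest fold enrichment was that of a male control. Of these, 4 (1, 3, 5 and 6) were called in more male controls than libraries of any other group. Regions 1, 3 and 5 were kept only because 2 or more male controls called them. For those 3 the excess of calls in male controls thus follows from the rule for keeping regions and adds no support. Bdnf region 4 (chr2:109691397-109693016), whose summits lay from 803 bp before to 108 bp after start site 4, was called in 16 libraries. Its fold enrichments were 8.16, 9.23 and 8.23 in male controls and 3.39 and 2.91 in male cocaine, while the females that called it lay between 2.46 and 4.61. Again no other library reached the male controls. Diestrus cocaine 3 had no peak there and was left out of its fit, made over regions that lacked a peak in at most 1 library. In that fit male cocaine was lower by a log2 difference of −0.96 (SE 0.21, adjusted p 0.00254), diestrus and proestrus differed by 0.34 and 0.31 (adjusted p 0.287 and 0.333), and male controls exceeded female controls by 1.20 (SE 0.16, adjusted p 9.38e-07).

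Bdnf region 1 (chr2:109673411-109674399), just upstream of the gene, was called in the 3 male controls (3.44, 3.86 and 4.06), diestrus cocaine 2 (3.14) and proestrus cocaine 1 (2.7). It also overlaps the annotated genes Gm45346 and Gm20638, and peaks do not tell which strand is transcribed. Bdnf region 5 (chr2:109693076-109693912), which covers start site 6, was called in the 3 male controls (2.93, 4.82 and 3.84) and diestrus cocaine 2 (3.02). Bdnf region 6 (chr2:109694787-109695209), in the intron downstream of start site 7, was called in the 3 male controls (5.23, 3.99 and 4.61) and proestrus cocaine 1 and 4 (2.8 and 2.72). These 3 regions were called in no diestrus or proestrus control and in neither male cocaine library. Bdnf region 3 (chr2:109690347-109690639) was called in male controls 1 and 2 (3.19 and 3.31) and proestrus cocaine 1 (2.6).

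At Ngfr, region 1 (chr11:95587206-95587918) covers the start site and region 2 (chr11:95586161-95586667) lies in the intron behind it. Region 1 gave 3.1, 5.36 and 4.36 in diestrus controls and 5.34 and 4.15 in diestrus cocaine 1 and 2. It gave 4.86, 3.71 and 4.08 in proestrus controls, 2.4 and 3.42 in proestrus cocaine 1 and 2, 5.61, 3.86 and 4.94 in male controls, and 2.95 and 3.49 in male cocaine. Male control and male cocaine did not overlap at region 1 in these values, which are not centred. Without centring the median log2 difference of all regions in males was −0.40, so this is no result about Ngfr. With a peak missing in 2 libraries no fit was made. Ngfr region 2 was called in 12 libraries, in all 3 male controls (3.82, 4.13 and 3.4) and in neither male cocaine library.

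**Figure D2:**
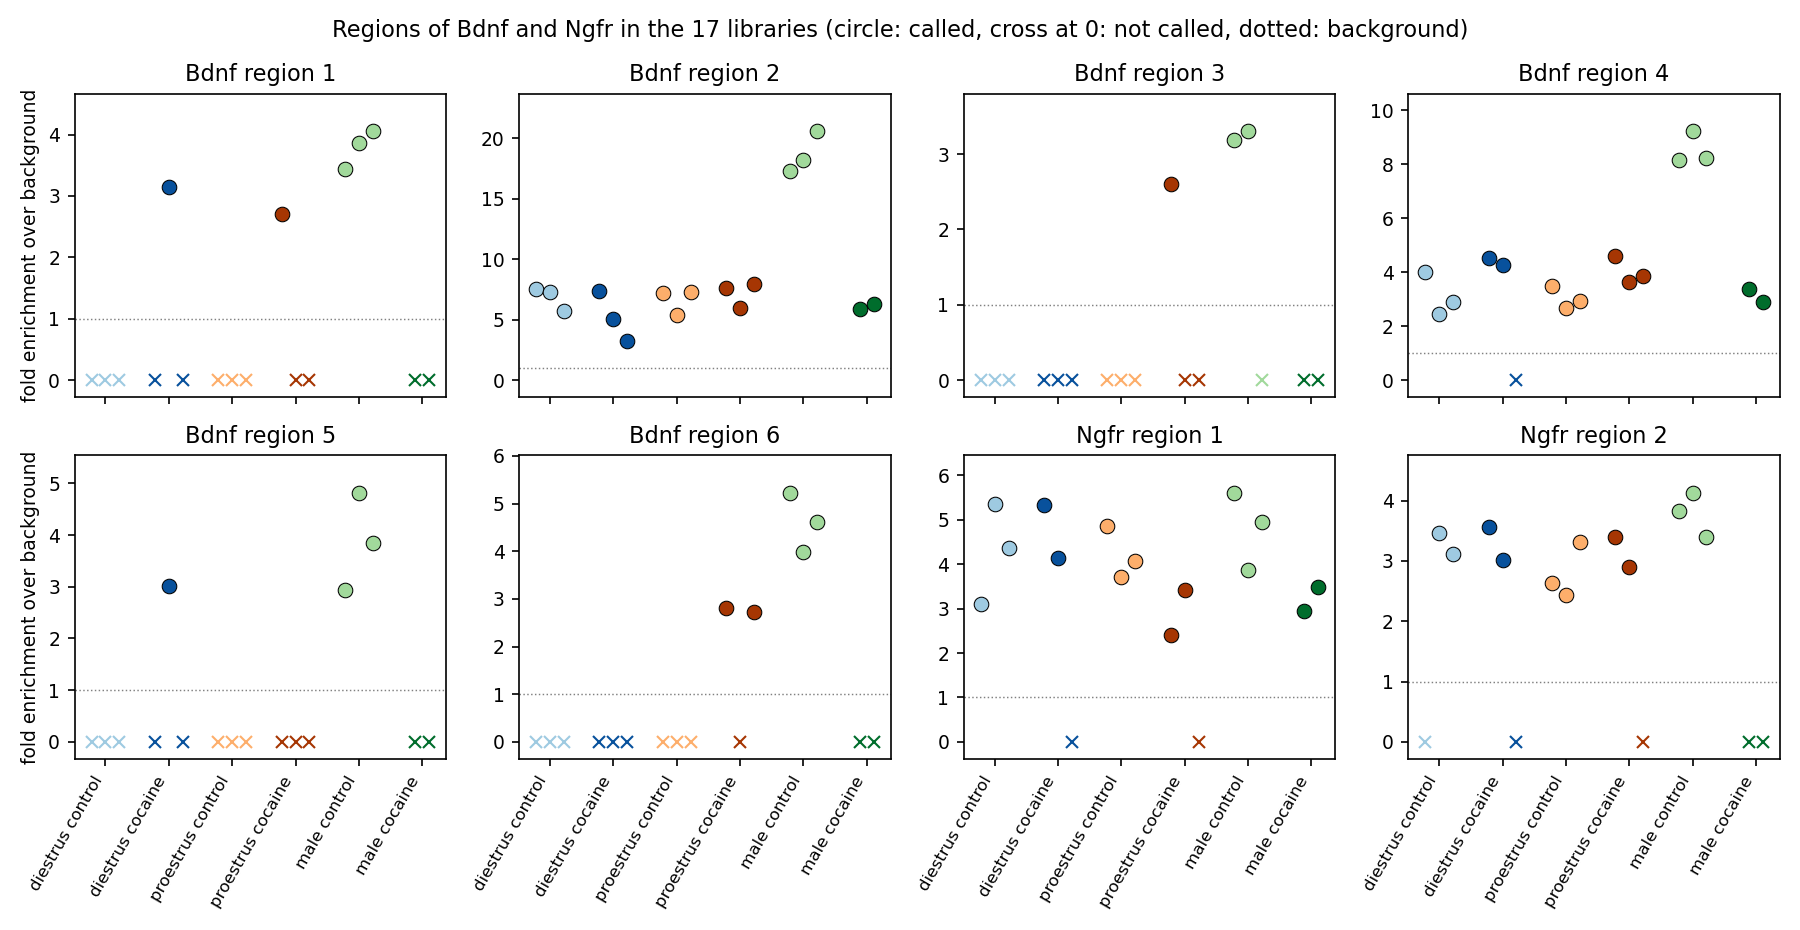
Each panel is 1 region of Bdnf or Ngfr; the vertical axis is the fold enrichment over background, the horizontal axis the 6 groups, each circle 1 library, and a cross at 0 a library without a peak. In all 6 Bdnf panels the highest circle is a male control, and in Bdnf region 2 the 3 male controls (17.3 to 20.6) lie above all other libraries (3.22 to 7.96). Bdnf regions 1, 3 and 5 were kept only because male controls called them.

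Ntf3 had no peak at its start sites but 6 regions around and within the gene, none called in all libraries. Ntf3 region 5 (chr6:126142004-126142977), in the intron, was called in 10 libraries: all 3 diestrus controls (3.74, 4.02 and 4.05), diestrus cocaine 1 (3.92), proestrus control 1 and 3 (3.48 and 3.32), proestrus cocaine 1 and 4 (3 and 2.51) and male control 1 and 3 (3.44 and 3.18). It was called in neither male cocaine library. Ntf3 region 4 (chr6:126154336-126154668) was called in the 3 male controls alone, at a median of 3.07. Ntf3 region 6 (chr6:126096126-126096742), downstream of the gene, was called in 5 control libraries, 2 diestrus and 3 male, and in no cocaine library. Of the 6 regions, male control 1 and 3 each called 6, male control 2 called 2, and no other library more than 2. Regions 1, 2, 3 and 4 were kept only because 2 or more male controls called them, so that this excess follows in part from the rule for keeping regions.

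Ntrk2 had the densest kept regions of the 5 genes, with 29.1 per 100 kb against 13.2 at Ntrk3, 8.3 at Bdnf, 7.02 at Ntf3 and 5.14 at Ngfr. The density at other genes is not given here. Of the 101 regions of Ntrk2, 14 were called in all libraries (13.9%), against 25% over the genome. The highest of all 192 regions was Ntrk2 region 87 (chr13:59072755-59076293), in an intron 268 kb from the first start site, with a median fold enrichment of 30.9 and a range of 22.6 to 45.3. It exceeded the start-site region of the same gene in every library. Ntrk2 region 101 (chr13:59143142-59146987), 338 kb from the start and downstream of the gene, came next among the Ntrk2 regions away from start sites, with a median of 14.1, and Ntrk2 region 78 (chr13:59035763-59044057) with 13.6. The strongest summit of Ntrk2 region 101 (chr13:59145887) lay past the 10 kb added to the gene. The window around it overlaps exons of the annotated genes Gm34307 and Gm34354. None of Ntrk2 regions 87, 101 and 78, nor the start-site region, passed the threshold in any of the 8 comparisons of fold enrichment.

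Ntrk3 had 22 of 77 regions called in all libraries (28.6%). Its highest regions also lay away from the start sites: Ntrk3 region 7 (chr7:78690530-78691979) with a median of 14.5, Ntrk3 region 68 (chr7:78296304-78298638) with 11.3 and Ntrk3 region 28 (chr7:78499014-78502027) with 10.3, all intronic. Each exceeded the median of the start-site region 15, 7.27. The regions of Bdnf and Ngfr that did not come within 250 bp of a start site were low, with medians of 3.19 to 3.99 and 3.36. Bdnf region 2 is not among them, since its width reaches start sites. Its summit, however, lay 1075 to 1217 bp downstream of start site 3.

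**Figure D3:**
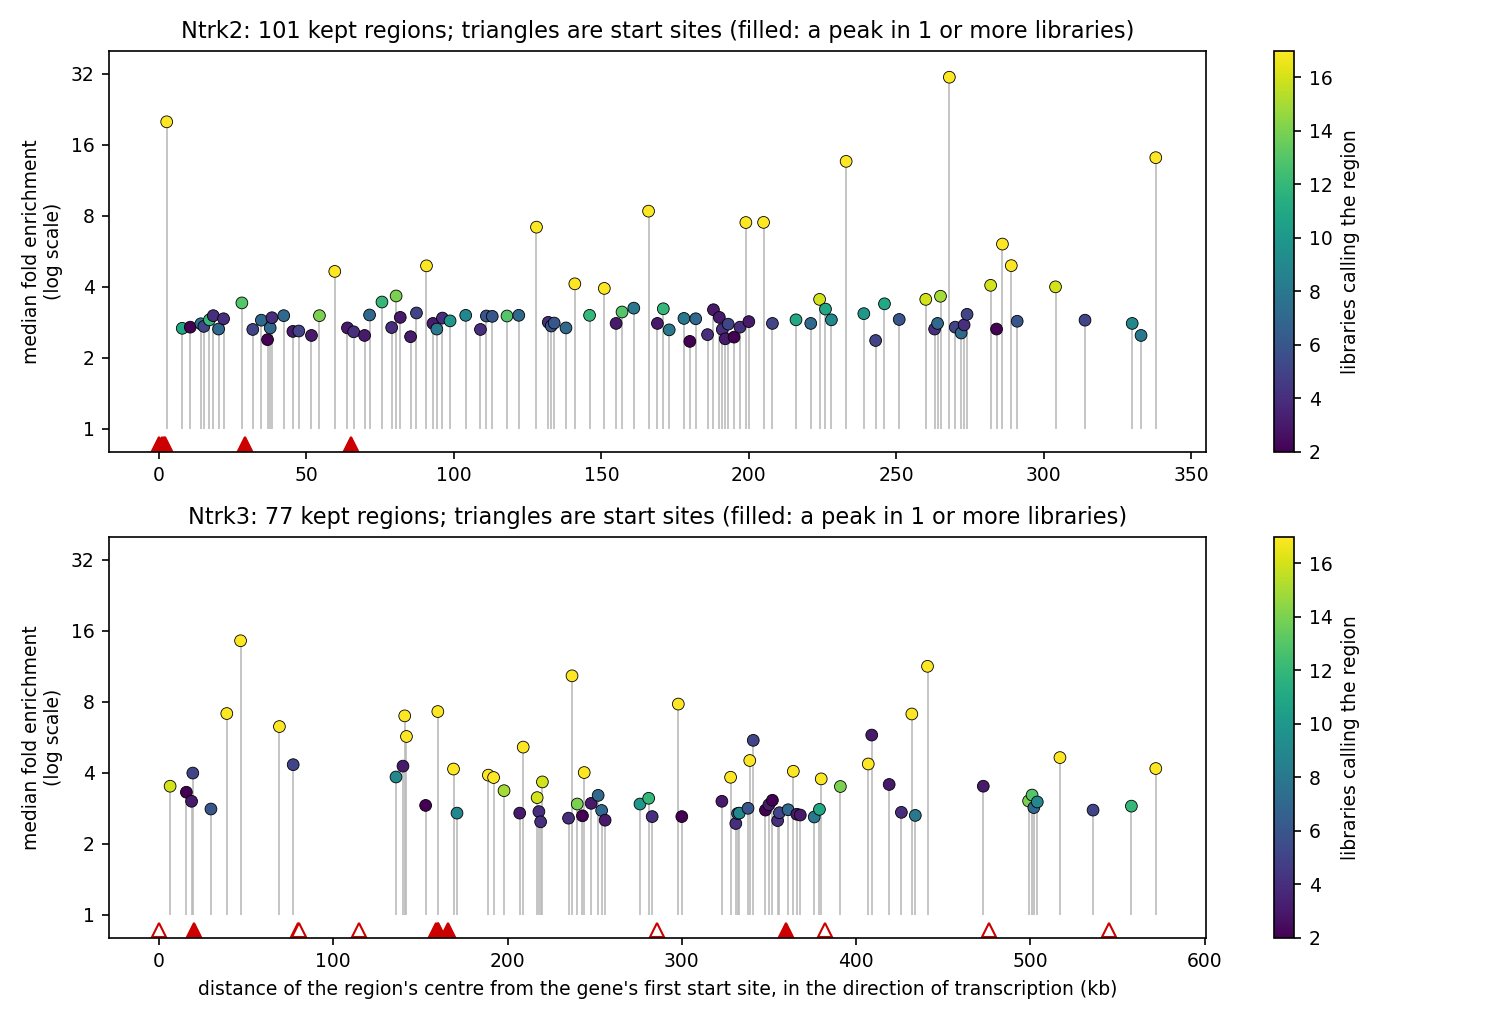
Each stem is 1 kept region of Ntrk2 (top) or Ntrk3 (bottom) at its distance from the first start site (kb), its height the median fold enrichment over the libraries calling it (log scale) and its colour the number of libraries calling it; triangles are start sites, filled where at least 1 library had a peak. The tallest stem of Ntrk2, region 87, lies 268 kb into the gene, and the 3 tallest of Ntrk3 lie away from filled start sites.

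Chromatin after cocaine was compared with control within each sex and stage, the comparison for which the experiment was designed. A region was counted as gained where every cocaine library and no control library called it, and as lost in the converse case. No region of the 5 genes was gained in diestrus (1.16% of all kept regions were) and 4 were lost (background 1.26%). In proestrus 2 were gained (background 2.45%) and 1 was lost (background 1.64%). In males 1 was gained (background 1.66%) and 27 were lost, or 14.1% of the 192, close to the 16.8% of all kept regions that were lost there. The male cocaine libraries held the fewest peaks of all. When each library was reduced to the same number of its strongest peaks, 10 of 103 member regions were lost in males and 3 gained, against 9.37% and 4.14% of all regions so defined.

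The 27 regions lost in males comprised 3 of Bdnf, 2 of Ntf3, 9 of Ntrk2, 12 of Ntrk3 and 1 of Ngfr. The Bdnf regions were 1, 5 and 6, the Ntf3 regions 4 and 6, and the Ngfr region was 2. Of the 27, 5 were called in no female library either: Ntf3 region 4 and Ntrk3 regions 11, 63, 64 and 69. These are 5 of the 192 members, while 6943 of all kept regions (4.71%) were called in all male controls and in no other library. The median number of female libraries calling one was 4 of 12. The highest among them by median fold enrichment were Ntrk3 region 63 (chr7:78328262-78328828), called only in male controls at 7.01, 5.78 and 5.6, and Ntrk3 region 48 (chr7:78397135-78397804), called in male controls at 7.65, 5.92 and 5.49 and in proestrus control 1 and 3 at 2.85 and 3.03. Ntrk3 region 4, over start site 2, was also lost. Ntrk2 region 86 (chr13:59070891-59072730), next to the gene's highest region, was lost in males although all 12 female libraries called it. The cortical marker peaks moved with these calls (3 of 3 in male controls, 0 in male cocaine) and their part in the result was not tested.

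In diestrus the lost regions were Ntrk2 regions 22, 23 and 34 (chr13:58870053-58870834, chr13:58872207-58872882 and chr13:58900267-58901326) and Ntrk3 region 32 (chr7:78489495-78490030), all intronic and low, with median fold enrichments of 2.58 to 2.97. Ntrk2 region 22 and Ntrk3 region 32 were called in the 3 diestrus controls and nowhere else. The regions gained in proestrus were Ntrk2 region 37 (chr13:58909875-58911368) and Ntrk2 region 58 (chr13:58982618-58986097), and the lost one was Ntrk3 region 44 (chr7:78405545-78406108). The region gained in males was Ntrk3 region 75 (chr7:78201018-78202318), at a median of 2.78. No region was gained in 1 sex or stage and lost in another.

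Sex and stage separated control libraries too. Against diestrus controls, male controls alone called 14 regions (background 9.05%) and diestrus controls alone 10 (background 3.02%), of which 8 lay at Ntrk2. Against proestrus controls, male controls alone called 15 (background 10.5%) and proestrus controls alone 2 (background 1.42%). Proestrus controls alone called 0 against diestrus (background 0.792%), and diestrus controls alone 4 (background 3.96%). Bdnf regions 1, 5 and 6 were among those of male controls against both stages, of which regions 1 and 5 were kept only because male controls called them. Bdnf regions 1, 5 and 6 were also among the 27 regions lost in males after cocaine. How often the 2 go together over all kept regions is not given here. The loss in males and the difference from female controls share the male controls, so that neither can be read as a second observation of the other.

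**Figure D4:**
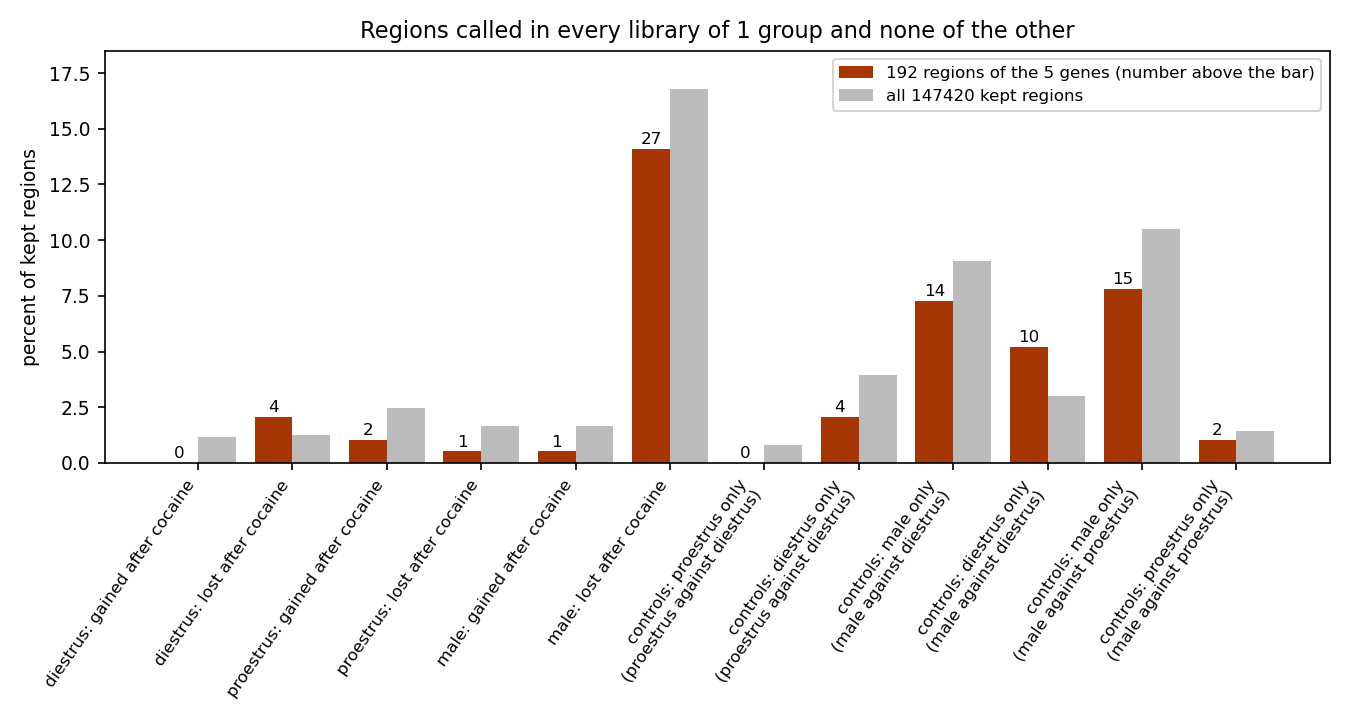
Bars give the percent of kept regions called in every library of 1 group and in none of the other, for the 192 regions of the 5 genes (orange-brown, with their number) and all 147420 kept regions (grey), in each comparison on the horizontal axis. The tallest pair is the loss in males after cocaine, 14.1% at these genes against 16.8% overall.

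Calls were also compared over all libraries, 8 cocaine against 9 control, for regions called in 4 to 13 of them. Of 99 member regions tested, 0 were called more often and 0 less often after cocaine at an adjusted p under 0.05 (two-sided Fisher's exact test), as over the genome, where the shares were 0% and 0%. At an unadjusted p under 0.05, 0 were called more often (background 3.81%) and 8 less often (background 9.23%). Ntrk2 region 14 (chr13:58843875-58844612) had the smallest p, with 0 cocaine and 7 control libraries (p 0.00226, adjusted p 0.216). Ntrk3 region 44 followed with 0 and 6 (p 0.00905, adjusted p 0.273).

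The number of called regions per gene, scaled to the total of each library, was compared between cocaine and control with an exact permutation of labels within sex and stage. Over 12848 genes with at least 3 kept regions, 4.03% passed at an adjusted p under 0.05 and 26.1% at an unadjusted p under 0.05. None of the 4 members tested passed either. The mean difference was −0.0492 regions at Bdnf (exact p 0.923), −1.35 at Ntf3 (0.0578), −0.219 at Ntrk2 (0.961) and −3.72 at Ntrk3 (0.0963). At Ntrk3 the scaled number in proestrus was 49.4 ± 2.8 (SD, n = 3) in controls and 37.9 ± 1.95 (n = 3) after cocaine, while the diestrus values were 40.2 ± 1.96 (n = 3) and 40.3 ± 6.19 (n = 3) and the male values 45.8 ± 1.28 (n = 3) and 46 ± 4.46 (n = 2). The proestrus groups at Ntrk3 did not overlap, but this was not tested by itself. The share of all genes whose proestrus groups separate in this way is not given. At Bdnf the male number was 4.68 ± 0.64 (n = 3) in controls and 2.87 ± 0.278 (n = 2) after cocaine. As stated above, several regions of Bdnf and Ntf3 were kept only because male controls called them. The high male control numbers and the male falls at both genes thus follow in part from that rule. The female numbers at Bdnf lay the other way, at 1.87 ± 0.13 and 2.4 ± 1.63 in diestrus and 2.12 ± 0.102 and 3.25 ± 1.35 in proestrus (n = 3 each), with overlap between the groups of both stages. Ngfr, with 2 regions, was not tested.

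Fold enrichment was compared at the 37 member regions called in all 17 libraries (1 of Bdnf, 14 of Ntrk2, 22 of Ntrk3), in 1 limma fit over all 36847 such regions, with each library centred on its median. In diestrus 0 members were higher (background 6.16%) and 4 lower (4.9%) after cocaine. In proestrus 1 was higher (1.55%) and 2 lower (1.85%), and in males 0 higher (5.56%) and 2 lower (4%). For the mean of the 3 comparisons 1 was higher (7.95%) and 5 lower (5.87%). The median member difference was −0.15, −0.11 and 0.12 in diestrus, proestrus and males, beside 0.01, −0.02 and 0.09 over all regions tested. The male effect exceeded the mean female effect at 3 members (11.9%) and fell short of it at 2 (6.53%). The diestrus effect was above the proestrus effect at 0 (0%) and below it at 1 (0.00543%). Among controls, proestrus was higher than diestrus at 0 (0.103%) and lower at 1 (0.214%), and males were higher than females at 2 (10.5%) and lower at 4 (14.4%).

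Centring bears on these directions. Without it the median difference of all regions moved to −0.40 in males, to −0.48 for males minus females, to −0.18 for proestrus minus diestrus controls and to 0.25 for male minus female controls, and all differences given here are relative to those medians. Without centring 0 members were higher and 8 lower in males (114 higher and 12136 lower over all regions, against 2049 and 1473 with it). In diestrus 0 and 1 were called (640 and 201 over all regions, against 2268 and 1807) and in proestrus 0 and 0 (534 and 29, against 571 and 681). For the mean of the 3 comparisons the counts were 0 and 7 (487 and 3226, against 2929 and 2162), and for males minus females 0 and 3 (176 and 13838, against 4382 and 2407). Between male and female controls they were 5 and 0 (11479 and 620, against 3861 and 5318), and between proestrus and diestrus controls 0 and 1 (4 and 329, against 38 and 79). Quantile normalization gave 0 and 3 in males (1304 and 1864 over all regions) and 0 and 2 for males minus females (3614 and 3647).

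In males the 2 lower members were Bdnf region 2, which was also lower in the mean of the 3 comparisons (−0.53, SE 0.10, adjusted p 0.000932), and Ntrk2 region 21 (chr13:58865570-58866790), in an intron before start site 6. Ntrk2 region 21 gave 11.5, 7.85 and 8.89 in male controls and 4.59 and 3.37 in male cocaine. In females it gave 5.55, 4.91 and 5.08 in diestrus controls, 5.22, 4.65 and 3.33 in diestrus cocaine, 4.01, 3.25 and 3.98 in proestrus controls and 4.51, 4.28 and 4.71 in proestrus cocaine. As at Bdnf region 2, the male controls lay above all other libraries. The cortical marker peaks moved with this region too (3 of 3 in male controls, 0 in male cocaine), and their part in the result was not tested. The male difference was −0.75 (SE 0.19, adjusted p 0.00841), which missed the threshold without male cocaine 2 (adjusted p 0.201). Male controls exceeded female controls by 0.78 (SE 0.14, adjusted p 0.000154). The male effect differed from the mean female effect by −0.70 (SE 0.22, adjusted p 0.026), which was lost without male control 1 or without male cocaine 2.

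In diestrus the largest difference of any member was at Ntrk2 region 54 (chr13:58970441-58973935), in an intron 166 kb into the gene. It gave 16.3, 11.7 and 12.9 in diestrus controls and 10.1, 3.9 and 3.91 in diestrus cocaine. In proestrus it gave 5.28, 6.15 and 5.31 in controls and 8.01, 9.95 and 7.12 after cocaine, and in males 9.56, 11.2 and 9, and 5.68 and 8.37. Cocaine libraries were below controls without overlap in diestrus and above them without overlap in proestrus. The centred difference was −1.35 in diestrus (SE 0.21, 95% interval −1.77 to −0.93, adjusted p 0.00168) and 0.47 in proestrus (0.05 to 0.89, adjusted p 0.194). The difference between those effects was −1.82 (SE 0.30, adjusted p 0.00655), and only 2 of 36847 regions passed that test. The printed summit window of this region is mostly a short repeat, with units such as tatgg and tatag. How reads map to this repeat, and its part in these differences, was not tested. Among controls the region was lower in proestrus than in diestrus by 1.07 on the log2 scale (SE 0.21, adjusted p 0.0174), a comparison that shares the controls of both effects. It rests on the summit height: with the mean over the peaks of the region in place of the highest, the diestrus difference had an adjusted p of 0.0946, the difference of effects 0.645 and the control difference 0.361. Without centring the difference of effects had an adjusted p of 0.0545. The difference of effects was also lost without diestrus control 1, diestrus cocaine 2, proestrus control 3 or proestrus cocaine 2, and the control difference in 5 of 6 fits that left out 1 library.

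Ntrk3 region 68 was lower after cocaine in the mean over males and both stages. It gave 11.6, 11.3 and 13.7 in diestrus controls and 11.5, 11.4 and 5.28 in diestrus cocaine, which overlap. In proestrus it gave 11.3, 10.8 and 13.4 in controls and 8.91, 8.23 and 8.27 after cocaine. In males it gave 16.2, 14.5 and 13.2, and 8.42 and 6.51, and in neither did the groups overlap. The differences were −0.47 in diestrus (SE 0.16, adjusted p 0.0434), −0.58 in proestrus (SE 0.16, adjusted p 0.0324) and −0.49 in males (95% interval −0.84 to −0.14, adjusted p 0.0659). Their mean was −0.51 (SE 0.09, adjusted p 0.00039), past the threshold whichever library was left out (adjusted p up to 0.0058), but not with the mean over peaks (adjusted p 0.168). The male minus the mean female effect there was 0.04 (95% interval −0.38 to 0.45) and the diestrus minus the proestrus effect 0.11 (−0.34 to 0.55). The diestrus and proestrus differences taken singly were each lost in 5 of 6 fits without 1 library.

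Ntrk3 region 6 (chr7:78698391-78699748) was lower in diestrus by 0.68 on the log2 scale (adjusted p 0.0128) and in the mean by 0.38 (adjusted p 0.0137), and lower in male than female controls by 0.69 (adjusted p 0.000943). Ntrk2 region 32 (chr13:58895937-58898695) was lower in diestrus (−0.64, adjusted p 0.0432) and Ntrk3 region 66 (chr7:78305123-78306994) in proestrus (−0.54, adjusted p 0.0465). Ntrk3 region 12 (chr7:78596678-78597853) was lower in the mean (−0.30, adjusted p 0.0447). Ntrk2 region 69 (chr13:59003957-59006267) was the 1 member that rose, in proestrus (0.64, adjusted p 0.0245) and in the mean (0.35, adjusted p 0.0146). At Ntrk3 regions 55, 31 and 18 the male effect exceeded the female by 0.60, 0.71 and 0.65 (adjusted p 0.0482, 0.0383 and 0.0461), and none of the 3 passed within males or females alone. When 1 library was left out at a time, the mean differences of Ntrk3 region 6 and Ntrk2 region 69 each missed the threshold in 1 of 17 fits, and the diestrus difference of Ntrk3 region 6 in 3 of 6. The other differences after cocaine named in this paragraph missed it in 4 or more fits. Without centring, no difference within diestrus or proestrus named here passed, nor did the mean of Ntrk2 region 69. In male controls Ntrk3 regions 55, 28 and 8 were lower than in female controls, by 0.55, 0.48 and 0.70 (adjusted p 0.00442, 0.00678 and 0.000394), and without centring none of the 4 Ntrk3 differences between controls passed (adjusted p 0.0695 to 0.424).

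**Figure D5:**
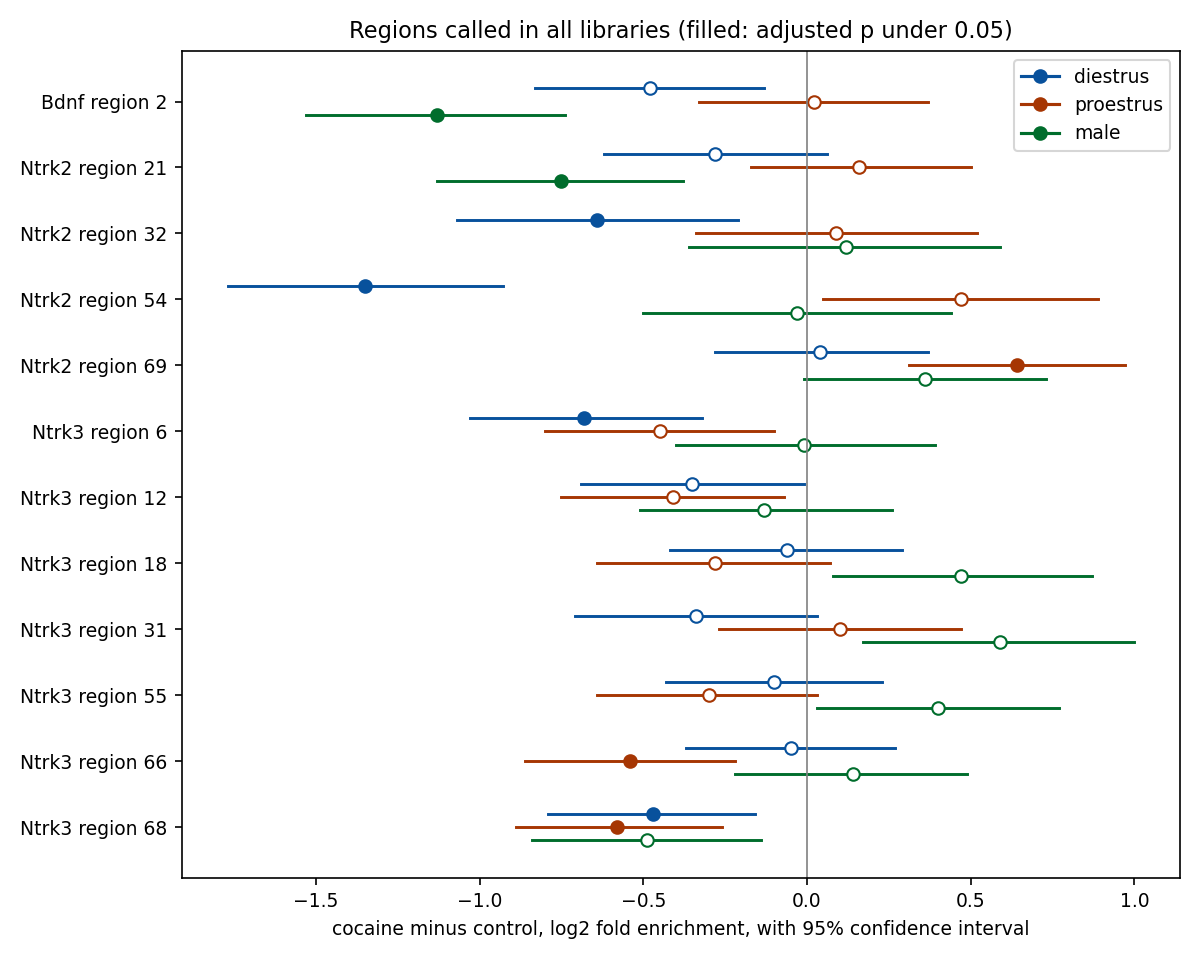
Points are the cocaine minus control difference in log2 fold enrichment at 12 member regions called in all libraries, with 95% confidence intervals, in diestrus (blue), proestrus (orange-brown) and males (green); filled points have an adjusted p under 0.05. Bdnf region 2 is furthest left in males (−1.13), Ntrk2 region 54 in diestrus (−1.35), and Ntrk3 region 68 lies left of 0 in all 3.

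Motifs were searched on both strands within 100 bp of each summit, and a match is a description of these letters, not a bound site. AP-1 sites (the letters TGACTCA or TGAGTCA), bound by Fos and Jun proteins, lay in 10 of 192 member windows (5.21%, against 10.1% of all kept regions), 5 at Ntrk2 and 5 at Ntrk3, and in none of Bdnf, Ntf3 or Ngfr. In the printed window of Ntrk3 region 28 the AP-1 site begins at base 91, next to the summit. The full cAMP response element, the palindrome bound by CREB, lay in 1 member window (0.521%, against 0.498%), that of Ntrk3 region 29. An estrogen response element (half-sites GGTCA and TGACC, 3 bases apart) was in 0 of them (against 0.0142%), and an Egr site in 0 (against 0.667%). Of 11 RefSeq promoters matched to the members (7 Bdnf, 2 Ntf3, 1 Ngfr, 1 Ntrk2), 0 held an exact match to any of the 4 motifs in their 300 bases. Near matches were not counted. The sequence printed before Bdnf start site 4 holds the letters TCACGTCA, which differ from the full cAMP response element (TGACGTCA) by 1 base. Among 32851 promoters of that length the shares were 5.2% for AP-1, 1.79% for the cAMP response element, 0.07% for the estrogen response element and 3.47% for Egr.

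Over the 17 libraries, the start-site regions whose centred fold enrichment was most like that of Bdnf region 2, among 12157 genes, were those of Loxhd1, Atp6ap1l and Prpf19 (Pearson r 0.899, 0.877 and 0.871). Those most like the Ntrk2 start-site region were Fam174b, Ccdc166 and Gnb1l (0.886, 0.885 and 0.883), and those most like Ntrk3 region 15 were Map3k13, Aasdh and Rab3ip (0.854, 0.832 and 0.827). These are the highest values among many, over points that share library and depth, and are given as a description.

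A list of 19 other genes of neurotrophin signalling comprised the ligand Ntf5, the sorting receptors Sort1 and Sorcs1 to Sorcs3, adaptors and effectors (Frs2, Frs3, Shc1 to Shc3, Plcg1, Gab1, Gab2, Sh2b1, Sh2b2, Kidins220, Maged1) and the convertases Furin and Pcsk1. Of these, 18 had a start-site peak in all libraries and 1, Ntf5, in none. Of 72 list regions called in all libraries, 2 were higher and 6 lower in diestrus, against 6.16% and 4.9% of all regions tested. In proestrus 0 were higher and 2 lower (1.55% and 1.85% of all regions), in males 2 and 2 (5.56% and 4%), and in the mean 0 and 7 (7.95% and 5.87%). The male effect was above the mean female effect at 13 list regions and below it at 4 (11.9% and 6.53% of all regions), and male controls were above female controls at 8 and below at 7 (10.5% and 14.4%). The lower regions after cocaine were mostly those of Sorcs2, a receptor for neurotrophin precursors: 5 of the 6 in diestrus and 6 of the 7 in the mean. In males 1 Sorcs2 region was lower and 1 was higher. The lower one lay at chr5:36212959-36213903, with a log2 difference of −1.53 (SE 0.21, adjusted p 1.22e-05), and the higher one at chr5:36229409-36231644, with 0.81 (SE 0.19, adjusted p 0.00623). By called regions per gene, 2 of 17 list genes tested passed the exact permutation test: Sorcs2 with 16.1 fewer (difference −16.1, adjusted p 0.0326) and Pcsk1, a convertase that cleaves neuropeptide precursors, with 3.09 more (adjusted p 0.0365). Beside them, Bdnf, Ntf3, Ntrk2 and Ntrk3 had adjusted p of 0.961, 0.205, 0.982 and 0.266.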

How the data were processed

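Per the submitters' processing notes and the study's methods, the authors aligned reads to mm10 with BWA and ran MACS2 on every library by itself; versions were not given in the sources used here. Each deposited peak has a ratio, the fold enrichment over background, and a −log10 p and −log10 q, which the authors' caller gave relative to that library alone. featureCounts and DESeq2 are also named there, but no read counts were used here. The background pileup, recovered from the steps of the fold enrichment (100% of values were whole multiples of it), served as a measure of relative depth.

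Peaks on chromosomes 1 to 19 and X that overlapped by at least 1 bp were merged over the 17 libraries, and a region was kept where 2 or more libraries of the same group called it. Genes and start sites came from GENCODE vM21, and sequence from GRCm38.p6, the build of the files. Groups came from the sample labels. Gained and lost regions were counted without a test, since 3 against 3 or 2 against 3 libraries cannot give a p under 0.05. Fisher's exact test and the exact permutation test (4000 assignments; the smallest p it can give is 0.00025) were two-sided. limma 3.58.1 (R 4.3.3, trend on the mean) was fitted to log2 of the highest fold enrichment per region and library, with 6 group means. p-values were adjusted by Benjamini-Hochberg over all features tested, with a threshold of 0.05. Libraries are pools of animals, so p-values measure the spread between pools. Scripts used Python 3.11.15, pandas 2.3.3, numpy 2.4.6, scipy 1.17.1 and pysam 0.24.0, and were tested on simulated data.

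Named regions were those at the 5 genes that were gained or lost, passed the limma threshold, or were among the 3 highest of a gene away from start sites; 3 genes with the most similar start-site region were named per member where one was called in all libraries. Bdnf region 4, Ngfr region 1 and Ntrk3 region 29 were added after their values were seen. The members, the lists and these rules were chosen with earlier results of these data known. Marker lists were neurons, medium spiny neurons, cortical excitatory neurons, astrocytes (Gfap, Aqp4, Aldh1l1, Gja1), oligodendrocytes (Mbp, Mog, Sox10), microglia (Cx3cr1, Csf1r, P2ry12, Aif1) and endothelium (Cldn5, Pecam1, Flt1, Tek). Some genes of the marker and signalling lists are not reported here, and the counts leave them out. RefSeq promoters were matched for 4 of the 5 genes.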

Additional observations from a re-analysis of the deposited data

Results flagged for a closer look

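In 6 cases the effect of cocaine differed between sexes or stages by a test of the difference itself (limma, adjusted over 36847 regions). The male effect minus the mean of the diestrus and proestrus effects was −0.90 on the log2 scale at Bdnf region 2 (adjusted p 0.0079) and −0.70 at Ntrk2 region 21 (adjusted p 0.026). In both, the 3 male controls were above all other libraries, the 2 male cocaine libraries included. Start-site peaks of cortical excitatory markers were also called in the male controls (3 of 3) and not in male cocaine (0), and their part in these differences was not tested. The same difference was 0.60 at Ntrk3 region 55, 0.71 at Ntrk3 region 31 and 0.65 at Ntrk3 region 18 (adjusted p 0.0482, 0.0383 and 0.0461), and at these 3 regions it missed the threshold without centring (adjusted p up to 0.886). Of all regions tested, 11.9% were higher and 6.53% lower in that comparison. The diestrus effect minus the proestrus effect was −1.82 at Ntrk2 region 54 (adjusted p 0.00655), where 0.00543% of all regions were lower. It had an adjusted p of 0.645 with the mean over the peaks of the region in place of the highest and of 0.0545 without centring. The summit window of Ntrk2 region 54 is mostly a short repeat, whose part in the difference was not tested. Groups of 2 or 3 libraries are too small for a check of single outlying libraries.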

How the results depend on the processing

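Of 28 named differences in fold enrichment, 9 kept their call in every fit that left out 1 library and 4 in every fit run; over 479 recomputed differences 330 passed again, 149 did not and 0 changed sign. Counts of member regions past the threshold after cocaine were, without centring, 1 in diestrus, 0 in proestrus, 8 in males, 3 for males minus females and 0 for diestrus minus proestrus. With the mean over peaks they were 0 in diestrus, 0 in proestrus, 2 in the mean, 2 for males minus females, 0 for diestrus minus proestrus and 0 between proestrus and diestrus controls. Centring within 20 bins of GC content gave 4 in males (2316 and 1874) and 8 for males minus females (3646 and 2737). Quantile normalization gave 2 for the latter (3614 and 3647), and regions missing in at most 1 library 4 in males (2228 and 1672 of 43272). Leaving out 1 library gave 1 to 11 in diestrus (main value 4), 0 to 3 in proestrus (3), 1 to 3 in males (2), 3 to 9 in the mean (6), 1 to 8 for males minus females (5), 0 to 1 for diestrus minus proestrus (1) and 0 to 1 between proestrus and diestrus controls (1). Where that left 1 male cocaine library, it was assumed to vary like the others. Counts over all regions are not given for these fits, so the ranges do not set the members apart from other regions. With peaks of −log10 q of at least 5, 113 member regions were kept. Lost regions numbered 0 in diestrus (1.01% of all regions of that set). In males 14 were lost, or 12.4%, beside 18.9% of all, and 0 were gained (0.551%). Diestrus controls alone called 1 against proestrus (3.64%). Male controls alone called 8 against diestrus (11.4%) and 8 against proestrus (12.8%), and the other sides were 1 (diestrus, 2.2%) and 0 (proestrus, 0.641%). With an equal number of the strongest peaks, 103 member regions were kept. Of these, 0 were lost in diestrus (1.21% of all regions of that set) and 1 gained in proestrus (2.38%). In males 3 were gained and 10 lost (4.14% and 9.37%). Diestrus controls alone called 1 against proestrus (3.15%) and 3 against males (3.64%). Male controls alone called 8 against diestrus (8.09%) and 7 against proestrus (8.11%). Without 1 library, diestrus gains numbered 0 to 5 and losses 4 to 10, proestrus gains 3 to 22 and losses 2 to 8, and male losses 30 to 47. Fewer libraries separate more easily. Between controls the ranges were 14 to 23 (male against diestrus), and 15 to 26 and 3 to 8 (male against proestrus, each way). They were 0 to 6 and 5 to 11 for proestrus against diestrus, each way. Shares over all regions are not given here for these ranges. Regions called less often after cocaine at an unadjusted p under 0.05 (8) numbered 4 with the stricter q, 2 with equal numbers of peaks (1 more often) and 3 to 8 without 1 library. The mean difference in called regions changed sign at Bdnf with the gene body alone (0.00246) and at Ntrk2 with the stricter q (2.57), and ranged from −0.359 to 0.145 and from −3.06 to 1.35 without 1 library, none past the threshold. With a peak over the start site itself 3 Bdnf sites had one in any library, and within 1000 bp 1 Bdnf site had one in all and 1 Ntf3 site in any. The causes of these changes were not tested except where stated.

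Deviations of same-numbered cocaine and control libraries from their group means correlated at −0.293, 0.0235 and −0.143 for diestrus, 0.195 and 0.116 for proestrus, and 0.0201 and 0.0163 for males. Deviations within a group sum to 0 and the libraries are few, so these values cannot settle whether replicate numbers pair the samples. With a replicate block, 0 members passed in proestrus (94 regions higher and 144 lower among all regions, against 571 and 681). For males minus females 3 passed (3326 and 1883 among all regions). Proestrus cocaine 4, the only library with that number, received a term of its own in the block. The proestrus difference of that fit thus drew on proestrus cocaine 1 and 2 alone. In diestrus 4 passed, as without the block (2368 higher and 1762 lower among all regions). A region without a peak has no fold enrichment here, so that only 37 of 192 member regions could be tested for it in all libraries. The part of depth in the missing calls was not tested.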
